A study of Mus musculus with 4 samples.

Results

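The genes described here encode 2 SH2-domain protein phosphatases, *Ptpn6* (SHP-1) and *Ptpn11* (SHP-2), together with partners in inhibitory receptor signaling: the lipid phosphatase *Inpp5d* (SHIP-1), the receptor phosphatase *Ptprc* (CD45), the receptors *Pirb*, *Pira2* and *Sirpa*, and the kinase *Lyn*. They are 8 of the 45802 gene symbols in the deposited table, found by symbol, and each had a value in all 4 libraries, as did 14415 genes in total. Values came from RNA sequencing of periosteal cells, the cells of the outer covering of bone, of male mice aged 9 to 10 weeks that carry CreER under the *Pdgfra* promoter and the mTmG reporter. All animals received tamoxifen (150 mg/kg per day for 5 d), and their hindlimbs were digested 14 d after the last dose. Tamoxifen switches a cell with an active *Pdgfra* promoter from membrane tdTomato to membrane GFP for good, so that the reporter records promoter activity at the time of treatment. After 1 passage with 10 ng/mL bFGF, cells negative for CD31, CD45 and Ter119 were sorted into GFP-bearing PDGFRα reporter+ and tdTomato-bearing PDGFRα reporter- cells, with 2 libraries of each. The alleles, the tamoxifen and the culture were thus shared by both groups, and each population was pooled from several mice (5 to 8 per the methods, 3 to 6 per the labels).

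Each value is a log2 signal that had been quantile normalized, which gives every library the same distribution (quartiles at −1.47, 1.48 and 3.00). The linear unit and the sequencing depth are unknown, so no counting error can be given, and levels of single genes are not compared with each other. Sums over marker lists are given per library, and how much each gene weighs in them depends on that unit. Column headings number the libraries 2 and 3 in both populations, and libraries are named by that number. *Pdgfra*, the gene behind the reporter, was 7.78 and 7.62 in PDGFRα reporter+ libraries 2 and 3, and 7.87 and 7.44 in PDGFRα reporter- libraries 2 and 3. The populations thus overlapped for *Pdgfra*. The periosteal stroma markers *Col1a1*, *Col1a2* and *Col3a1*, which encode fibrillar collagen chains, lay between 7.44 and 10.78 in the 4 libraries.

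SHP-1 is made mainly by blood cells and is recruited, through its SH2 domains, to phosphorylated immunoreceptor tyrosine-based inhibitory motifs (ITIMs) in the tails of receptors such as PIR-B and SIRPα. There it removes phosphate from kinases and adaptors and damps activating signals. Src family kinases, among them Lyn, phosphorylate the motifs, and CD45 keeps those kinases ready by removing an inhibitory phosphate. SHP-2 is a close relative that is made in nearly every cell and mostly promotes signaling from growth factor receptors. SHIP-1 acts on lipid instead and removes the 5-phosphate from PIP3. PIR-A receptors are activating counterparts of PIR-B that signal through the Fc receptor γ chain.

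The promoters of 5 members are printed because the comparison below turns on genes made mainly by blood cells against a widely made relative. RefSeq promoter windows were matched for 6 of the 8 members (not *Sirpa* and *Lyn*), and the 250 bases before the RefSeq start site are given 5′ to 3′ on the gene's strand. Capitals mark matches, on either strand, to the PU box GAGGAA (the core bound by PU.1, the myeloid factor encoded by *Spi1*), to the CRE TGACGTCA or to the GC box GGGCGG. These motifs were chosen after the sequences had been seen.
Ptpn6 (GRCm38.p6, chr6:124738710-124738959, minus strand): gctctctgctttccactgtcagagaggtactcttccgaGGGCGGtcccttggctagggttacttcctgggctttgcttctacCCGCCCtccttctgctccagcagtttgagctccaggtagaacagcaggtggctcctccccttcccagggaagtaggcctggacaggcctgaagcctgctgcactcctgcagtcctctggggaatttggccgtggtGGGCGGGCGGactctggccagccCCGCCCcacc
Ptpn11 (GRCm38.p6, chr5:121191398-121191647, minus strand): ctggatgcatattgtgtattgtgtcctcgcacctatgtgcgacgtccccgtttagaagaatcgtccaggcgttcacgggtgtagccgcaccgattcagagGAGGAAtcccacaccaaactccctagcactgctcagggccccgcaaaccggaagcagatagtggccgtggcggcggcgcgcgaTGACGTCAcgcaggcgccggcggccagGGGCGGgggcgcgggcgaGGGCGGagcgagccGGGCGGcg
Inpp5d (GRCm38.p6, chr1:87620062-87620311, plus strand): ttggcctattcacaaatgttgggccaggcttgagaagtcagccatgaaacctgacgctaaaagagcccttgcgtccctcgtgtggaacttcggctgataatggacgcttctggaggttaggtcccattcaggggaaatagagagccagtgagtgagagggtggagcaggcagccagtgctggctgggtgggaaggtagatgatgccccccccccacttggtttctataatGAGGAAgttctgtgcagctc
Pirb (GRCm38.p6, chr7:3720383-3720632, minus strand): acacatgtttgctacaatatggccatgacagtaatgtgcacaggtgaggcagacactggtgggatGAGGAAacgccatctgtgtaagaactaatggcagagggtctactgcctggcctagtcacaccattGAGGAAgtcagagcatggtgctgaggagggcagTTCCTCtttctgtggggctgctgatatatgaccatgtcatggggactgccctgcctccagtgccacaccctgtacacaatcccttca
Pira2 (GRCm38.p6, chr7:3845052-3845301, minus strand): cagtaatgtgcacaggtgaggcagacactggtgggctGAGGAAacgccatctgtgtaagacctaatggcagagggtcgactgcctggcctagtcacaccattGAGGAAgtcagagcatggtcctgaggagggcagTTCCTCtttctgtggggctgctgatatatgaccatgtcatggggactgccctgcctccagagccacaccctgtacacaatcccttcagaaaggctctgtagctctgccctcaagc
The *Ptpn6* window held 5 GC boxes, of which a pair overlap (the only overlapping matches in these windows), and no PU box, and 63.2% of its bases were G or C. It lies at the outer 5′ end of the gene, so a start site further within *Ptpn6* is not covered. Which start site these cells used was not tested. That of *Ptpn11* held 1 PU box, 1 CRE and 3 GC boxes, with 66.8% G or C. *Inpp5d* carried a PU box that begins 20 bases before the start, and *Pirb* and *Pira2* carried 3 each. The *Pirb* and *Pira2* windows were identical at 217 of 222 aligned bases (97.7%). One of the *Ptprc* windows, not printed, held 1 PU box. Among all 32851 promoter windows of this length, 23.3% held the PU box, 1.55% the CRE and 32.7% the GC box. A match describes the letters only, and the absence of a match says nothing about binding.

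The 5 members made mainly by blood cells (*Ptpn6*, *Inpp5d*, *Ptprc*, *Pirb* and *Pira2*) had higher values in PDGFRα reporter+ than in PDGFRα reporter- cells within each library number. So did *Sirpa*, and 22.1% of all genes tested. *Ptpn11*, *Sirpa* and *Lyn* had smaller differences and overlapping populations. Other tissues make them as well, although myeloid cells also make *Sirpa* and *Lyn*. This grouping of the members was made with their values known. The populations did not overlap for *Ptpn6* (1.65-fold between means), *Pirb* (2.97-fold) and *Pira2* (2.29-fold), with the PDGFRα reporter+ values on top. *Ptprc* (1.90-fold) and *Inpp5d* (1.61-fold) overlapped between populations. *Ptpn11*, *Sirpa* and *Lyn* differed by at most 1.13-fold in either direction. No member passed the limma test across all genes.

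*Ptpn6* lies on the minus strand at chr6:124720707-124738714 (GRCm38). Its signal was −0.16 and 0.18 on the log2 scale in PDGFRα reporter+ libraries 2 and 3 and −0.91 and −0.51 in PDGFRα reporter- libraries 2 and 3. Both PDGFRα reporter+ values were the higher, with a gap of 0.35 between the closest libraries of the populations. Its log2 fold change was 0.72 (SE 0.35, n = 2 per population), and the difference was nearly the same within number 2 (0.75) and within number 3 (0.70). The study picked *Ptpn6* from these same libraries, so this difference is a description and no independent evidence. An antisense gene, Gm20531, overlaps *Ptpn6* on the opposite strand and had no value in the table, nor did the annotated genes that overlap *Ptpn11*, *Ptprc* and *Lyn*.

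*Ptpn11*, at chr5:121130533-121191397 on the minus strand, was 3.95 and 4.33 in PDGFRα reporter+ libraries 2 and 3 and 4.15 and 4.44 in PDGFRα reporter- libraries 2 and 3. The populations overlapped, and the libraries numbered 3 were the higher in each. The log2 fold change was −0.15 (SE 0.21, n = 2 per population), with −0.20 within number 2 and −0.11 within number 3, so that *Ptpn11* was the only member lower in PDGFRα reporter+ cells within both numbers.

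*Inpp5d*, on the plus strand at chr1:87620312-87720507, was −1.02 and −0.41 in PDGFRα reporter+ libraries 2 and 3, and −2.00 and −0.80 in PDGFRα reporter- libraries 2 and 3. PDGFRα reporter- library 2 was far below the others, and PDGFRα reporter- library 3 lay above PDGFRα reporter+ library 2. The log2 fold change was 0.69 (SE 0.57, n = 2 per population). Its widely made relative *Inppl1* (SHIP-2), which also removes the 5-phosphate, was 3.94 and 3.56 against 3.85 and 3.62, a log2 fold change of 0.02 (SE 0.20).

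*Ptprc* lies at chr1:138062861-138175708 on the minus strand. It encodes CD45, the surface protein against which the cells were sorted, and had a value in each library: −1.28 and −0.39 in PDGFRα reporter+ libraries 2 and 3, and −2.30 and −1.22 in PDGFRα reporter- libraries 2 and 3. The populations overlapped by 0.06, since PDGFRα reporter+ library 2 was just under PDGFRα reporter- library 3. Within numbers, PDGFRα reporter+ was higher by 1.02 and 0.83, and the log2 fold change was 0.93 (SE 0.59, n = 2 per population).

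*Pirb*, an ITIM receptor of myeloid and B cells at chr7:3711409-3720391 on the minus strand, was 0.29 and 1.44 in PDGFRα reporter+ libraries 2 and 3, and −1.63 and 0.22 in PDGFRα reporter- libraries 2 and 3. The populations were separated by a gap of only 0.07, and the values also differed by library number, with number 3 above number 2 by 1.15 in PDGFRα reporter+ and by 1.86 in PDGFRα reporter- cells. The log2 fold change was 1.57 (SE 0.78, n = 2 per population), and 0.687% of all genes tested had a larger one. Without PDGFRα reporter- library 2 it was 0.64, below the 0.75 of *Pira2* in the same fit.

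*Pira2*, which encodes an activating PIR-A receptor, lies at chr7:3836812-3845051 on the minus strand. It was −2.62 and −1.56 in PDGFRα reporter+ libraries 2 and 3 and −3.73 and −2.84 in PDGFRα reporter- libraries 2 and 3. Here too both PDGFRα reporter+ values were the higher, by a gap of 0.21, and the log2 fold change was 1.19 (SE 0.66, n = 2 per population). Both genes belong to a family of similar copies. Of all 50-base windows in the annotated transcripts of *Pira2*, 93.0% also occurred in a transcript of another gene, and so did 34.0% of those of *Pirb*. *Pira2* shared 82.6% of its windows with Gm15922, 31.7% with Gm14548 and 22.6% with *Pirb*, and *Pirb* shared 17.7% with Gm14548 and 16.8% with *Pira2*. How reads shared by such genes were assigned is not given in the sources used here, so the values of both are uncertain as to which gene of the family the reads came from. The corresponding share was 13.4% for *Lyn* and under 1% for each of the other members.

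*Sirpa*, at chr2:129592835-129632228 on the plus strand, encodes the ITIM receptor for CD47, which macrophages carry but many other cells as well. It was 4.65 and 4.19 in PDGFRα reporter+ libraries 2 and 3, and 4.45 and 4.03 in PDGFRα reporter- libraries 2 and 3. Unlike the other members, it was lower in the libraries numbered 3 of each population. The populations overlapped, and the mean was higher in PDGFRα reporter+ cells by 0.18 (SE 0.25, n = 2 per population).

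*Lyn*, at chr4:3678115-3813122 on the plus strand, was 0.89 and 1.53 in PDGFRα reporter+ libraries 2 and 3, and 0.91 and 1.38 in PDGFRα reporter- libraries 2 and 3. The populations overlapped almost fully, and the difference of 0.06 (SE 0.34, n = 2 per population) had opposite signs within the numbers (−0.03 and 0.15).

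**Figure D1:**
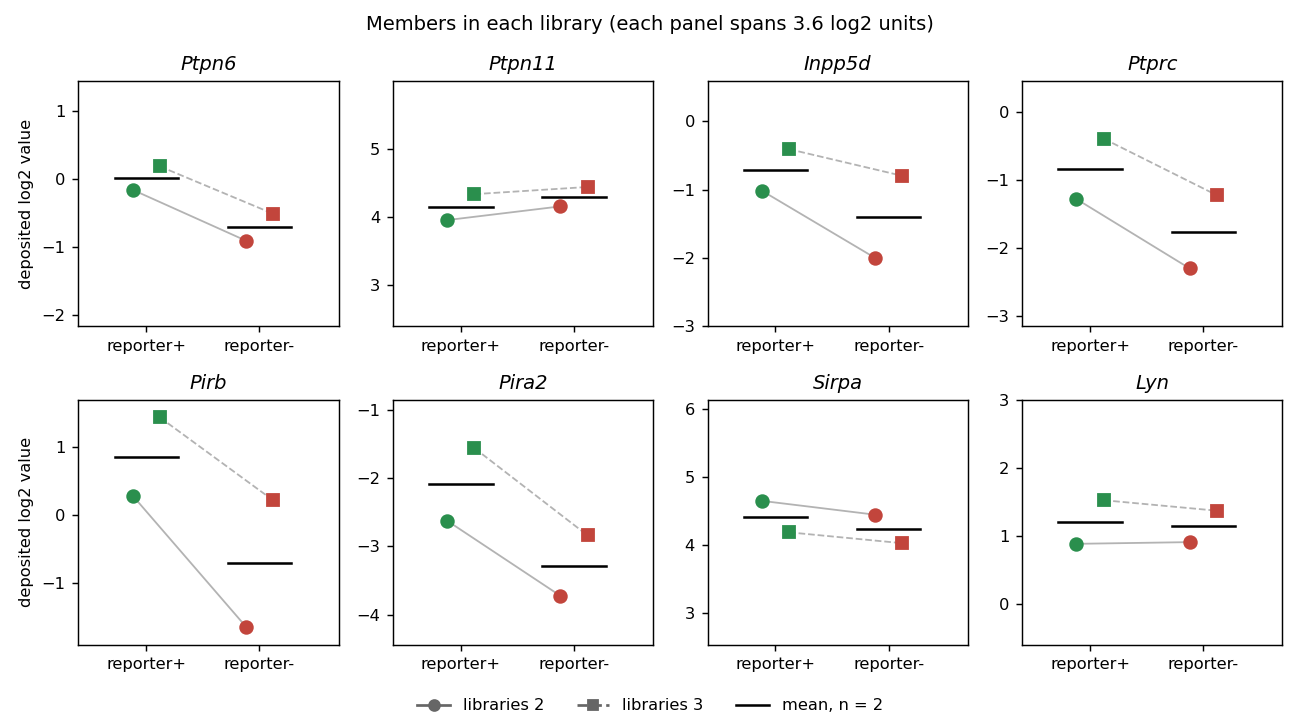
Deposited log2 value (vertical axis) of each member in the PDGFRα reporter+ (green) and PDGFRα reporter- (red) libraries, with circles for libraries 2, squares for libraries 3, gray lines joining libraries of the same number and black bars for the mean of 2 libraries. *Ptpn6*, *Pirb* and *Pira2* have both green points above both red points, and the means of *Ptpn11*, *Sirpa* and *Lyn* differ by 0.15, 0.18 and 0.06.

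Of the 8 members, 3 had PDGFRα reporter+ values that were both above the PDGFRα reporter- values, a pattern held by 7.59% of the genes tested, and 0 had the opposite pattern, held by 8.1%. Within both numbers, 6 members were higher in PDGFRα reporter+ (22.1% of genes tested) and 1 was lower (24.8%). The median log2 fold change of the members was 0.71, beside −0.0035 for all genes tested, whose quartiles were −0.13 and 0.11. In limma without a block, 0 members and 0 genes (0% of those tested) had an adjusted p under 0.05, and all 8 members had an adjusted p of 1. At an unadjusted p under 0.05, 131 genes (0.909%) and 0 members passed, with *Ptpn6* lowest among the members at 0.102. With the library number as a block, limma called 29 genes (0.201%) and none of the members at an adjusted p under 0.05, and *Pirb* had the lowest adjusted p of the members (0.0642). At an unadjusted p under 0.05, that fit passed 913 genes (6.33%) and 4 members, namely *Pirb*, *Ptprc*, *Ptpn6* and *Pira2*. The PDGFRα reporter+ excess of *Ptpn6*, *Inpp5d*, *Ptprc* and *Pira2* concerns genes whose mean log2 value is below 0. After 1 was added to the linear signal, their log2 fold changes were 0.32, 0.21, 0.27 and 0.17, and that of *Pirb* went from 1.57 to 0.76.

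**Figure D2:**
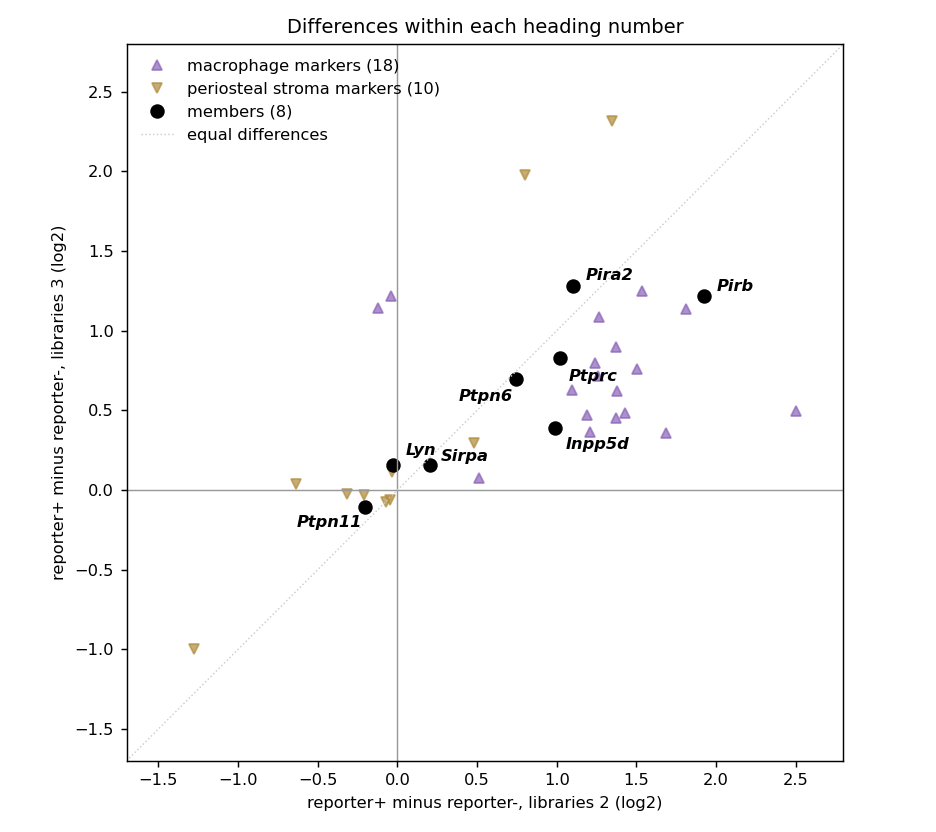
Difference of log2 values, PDGFRα reporter+ minus PDGFRα reporter-, within libraries 2 (horizontal axis) and within libraries 3 (vertical axis) for the 8 members (black), 18 macrophage markers (purple) and 10 periosteal stroma markers (tan), with a dotted line where both differences are equal. *Ptpn6* is at 0.75 and 0.70, *Pirb* at 1.92 and 1.22, and *Ptpn11* at −0.20 and −0.11.

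*Ptpn6* and *Ptpn11* were next compared within each library, since the log2 difference between a pair of genes cancels library-wide shifts and, between populations, any effect of gene length. *Ptpn6* minus *Ptpn11* was −4.11 and −4.15 in PDGFRα reporter+ libraries 2 and 3 and −5.06 and −4.95 in PDGFRα reporter- libraries 2 and 3. Libraries of the same population lay close together (SD 0.03 and 0.08, n = 2). The ratio of SHP-1 to SHP-2 transcript signal was thus 1.83-fold higher in PDGFRα reporter+ cells, a difference of 0.87 on the log2 scale (0.95 within number 2 and 0.80 within number 3). An exact two-sided permutation test gave p = 0.333, which is the smallest that the 6 possible regroupings of 4 libraries allow. With 1 added to the linear signal, the difference was 0.46. Since the study picked *Ptpn6* from these same libraries, its ratios to other genes are descriptions too and no independent evidence.

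Relative to *Lyn*, the kinase that phosphorylates ITIMs, *Ptpn6* was higher by 0.66 in PDGFRα reporter+ cells (0.77 and 0.54 within numbers), again with populations that did not overlap. Relative to *Sirpa*, the difference was 0.54, and it was nearly equal within the numbers (0.54 and 0.54), but the populations overlapped. Against *Inpp5d*, *Ptprc*, *Pira2* and *Pirb* the difference was near 0 or had the opposite sign, at 0.03, −0.20, −0.47 and −0.85. Their differences within numbers ranged from −1.18 to 0.30. Over these 7 ratios, exact permutation p ranged from 0.333 to 1, and from 0.778 to 1 after Benjamini-Hochberg adjustment.

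**Figure D3:**
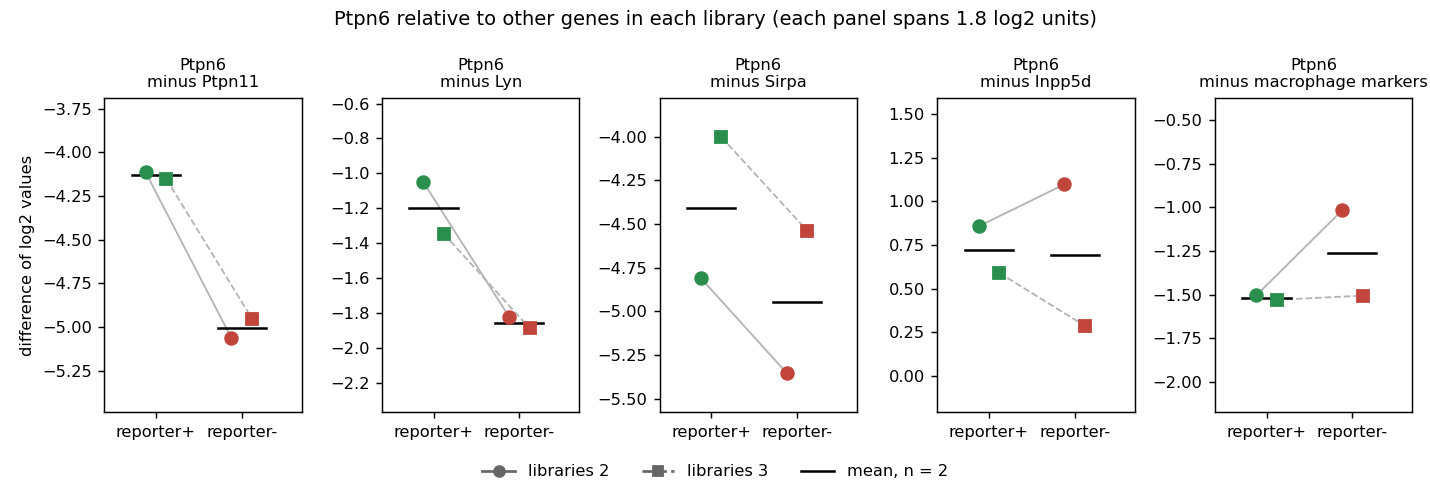
Log2 value of *Ptpn6* minus that of *Ptpn11*, *Lyn*, *Sirpa*, *Inpp5d* or the mean of 18 macrophage markers (vertical axes) in each PDGFRα reporter+ (green) and PDGFRα reporter- (red) library, with circles for libraries 2, squares for libraries 3 and black bars for means of 2 libraries. The difference between means is 0.87 against *Ptpn11* and −0.26 against the macrophage markers.

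Markers of macrophages were mostly higher in PDGFRα reporter+ cells as well. All 20 listed markers were found in some library and 18 in every one, of which 12 lay above in PDGFRα reporter+ cells, 0 lay below and 16 were higher within both numbers (against 7.59%, 8.1% and 22.1% of all genes). Their median log2 fold change was 0.99. Added up after taking them out of the log, the 20 markers came to 259 and 302 in PDGFRα reporter+ libraries 2 and 3, and to 106 and 198 in PDGFRα reporter- libraries 2 and 3. *Lyz2* alone made up 72.5% to 77.8% of these sums, and the other 19 came to 58.6 and 67.2 against 29.2 and 45.6. Of the 20 listed markers, *Cd163* was blank in 3 libraries and *Fcgr1* in PDGFRα reporter- library 2.

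*Cd68*, a lysosomal protein of macrophages, was 2.87 and 2.84 in PDGFRα reporter+ libraries 2 and 3 and 1.77 and 2.22 in PDGFRα reporter- libraries 2 and 3. *Adgre1*, the surface receptor by which mouse macrophages are usually stained, was 1.36 and 2.17 against −0.01 and 1.27, and *Lyz2* (lysozyme) was 7.65 and 7.88 against 6.27 and 7.25. These 3 markers did not overlap between populations. *Csf1r*, the receptor for the macrophage growth factor, was 1.08 and 1.60 against −0.11 and 1.13, *Itgam* (CD11b) 0.50 and 1.38 against −0.76 and 0.67, and *Spi1* −0.94 and 0.48 against −2.21 and −0.61. These overlapped, although each was higher in PDGFRα reporter+ within both numbers. Among the markers with a positive mean, the largest difference without overlap was that of *C1qb*, a chain of complement C1q, at 1.48 (SE 0.27). Macrophages carry CD45 on their surface, and the sort was for cells negative for it.

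Relative to the mean of the 18 macrophage markers, *Ptpn6* differed by −0.26 between populations (−0.49 and −0.02 within numbers), against 0.72 on its own. On that scale *Ptprc* differed by −0.05, *Inpp5d* by −0.29, *Pira2* by 0.22 and *Pirb* by 0.59, while *Ptpn11*, *Lyn* and *Sirpa* differed by −1.13, −0.91 and −0.80. The mean of the markers itself was higher by 0.98. These ratios were chosen after the values were seen, and exact two-sided permutation p over the 4 libraries ranged from 0.333 to 1. The part of macrophage RNA in the members' differences was not tested. In bulk RNA, fewer cells of a type and less RNA per cell cannot be told apart.

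Other blood cell markers were sparse. Of the neutrophil markers, 6 of 10 had any value and 1 had values throughout, and their summed level was 0.367 and 4.12 in PDGFRα reporter+ libraries 2 and 3 against 0.331 and 1.04 (0.313 and 1.49 against 0.331 and 0.588 without *S100a8*), with *S100a9*, *Ltf*, *Ngp* and *Retnlg* blank in every library. B cell markers (4 of 6 with any value) came to 0.141 and 0.303 against 0.0755 and 0.179, with *Ms4a1* and *Cd79b* blank. T cell markers (3 of 8) came to 0.0401 and 0.00699 against 0 and 0, with *Cd3e*, *Cd3g*, *Cd8a*, *Trbc2* and *Trac* blank. Mast cell markers (3 of 6) came to 0.0578 and 0.0730 against 0.0716 and 0.107, with *Mcpt4*, *Tpsb2* and *Ms4a2* blank, and erythroid markers (4 of 6) to 0.0672 and 0.0620 against 0.171 and 0.107, with *Alas2* and *Hbb-bs* blank. The lymphoid, mast cell and erythroid sums thus stayed below 1 in every library.

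Osteoclast markers (8 of 8 with any value) had a summed level of 27.3 and 28.5 in PDGFRα reporter+ libraries 2 and 3 against 22.8 and 18.1. *Ctsk* (cathepsin K), which periosteal stroma cells also make, took 72.7% to 86.6% of each sum. Of the 7 with all values, 4 lay above and 0 below (7.59% and 8.1% of all genes), *Acp5* by 1.46 (SE 0.56) and *Ctsk* by 0.39 (SE 0.13). The median difference of the 7 was 0.10 within number 2 and 1.76 within number 3, and that of *Acp5* was 0.44 and 2.48. Endothelial markers (8 of 8) had sums of 1.60 and 1.39 against 2.93 and 3.66, of which *Erg* made up 82.7% and 13.1% against 66.6% and 5.82%, and without it the sums were 0.278 and 1.21 against 0.978 and 3.45. Of the 6 with all values, 3 lay below (8.1% of all genes). The periosteal stroma list had a median log2 fold change of −0.06 over 10 genes and sums of 1983 and 2815 against 1686 and 2193. *Col3a1* made up 39.2% to 65.4% of these, and without it the sums were 1060 and 1055 against 1026 and 758. Of the 10, 3 were higher and 5 lower within both numbers (22.1% and 24.8% of all genes). *Lum* (1.83, SE 0.33) and *Dcn* (1.39, SE 0.39), 2 small proteoglycans, lay above (7.59% of all genes), and *Postn* (periostin), a matrix protein of periosteum, was lower within both numbers (log2 fold change −1.14, SE 1.45) with overlapping populations.

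Genes of the wider pathway were then described from lists that include the members. The ITIM receptor list held 23 symbols of ITIM receptors and related receptors, not all of which carry the motif. Of these, 20 had a value in all 4 libraries. Among those 20, 8 lay above in PDGFRα reporter+ cells, 1 lay below, 13 were higher and 1 was lower within both numbers (against 7.59%, 8.1%, 22.1% and 24.8% of all genes). The list's median log2 fold change was 1.20, but only 5 of the 20 genes had a mean log2 value of 0 or more, and the median was 0.54 with 0.1 and 0.14 with 1 added to the linear signal. *Fcgr2b*, the inhibitory Fc receptor that recruits SHIP-1, was 0.24 and 0.99 against −0.77 and 0.00, a log2 fold change of 1.00 (SE 0.45) with 1.01 and 0.99 within numbers. *Clec4a2* and *Clec12a*, myeloid lectin receptors with an ITIM, were higher by 2.36 (SE 0.57) and 1.64 (SE 0.63) without overlap, although from negative log2 values. The gene of the list below in PDGFRα reporter+ cells was *Pecam1*, which encodes CD31, an endothelial ITIM protein and another surface marker of the sort. It was −4.68 and −4.79 in PDGFRα reporter+ libraries 2 and 3 and −1.99 and −1.11 in PDGFRα reporter- libraries 2 and 3, a difference between the populations of −3.19 (SE 0.57).

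Of 13 genes for ligands of these receptors, 9 had values throughout, with a median log2 fold change of 0.15 (0.13 with 1 added to the linear signal), 1 above and 0 below, beside 7.59% and 8.1% of all genes. *Cd47*, which engages SIRPα, was 3.61 and 3.68 against 3.62 and 3.22 (log2 fold change 0.22, SE 0.19), and the class I heavy chain *H2-K1*, a ligand of PIR-B, was 3.99 and 3.85 against 3.52 and 3.74 (0.29, SE 0.16). Among the paired activating receptors and the adaptors with activating motifs, only 4 of 18 genes had values throughout, and 2 of these, *Pira2* and *Tyrobp*, lay above (7.59% of all genes). *Tyrobp* (DAP12), the adaptor of many myeloid receptors, was 3.05 and 3.45 against 1.88 and 2.61, higher by 1.00 (SE 0.32). *Fcer1g*, the Fc receptor γ chain that PIR-A needs for signaling, was 1.84 and 2.15 against 0.78 and 1.88, with overlap.

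Among the Src family and Syk kinases and their regulators, 3 of 11 genes lay above and 0 below (7.59% and 8.1% of all genes), with a median of 0.17. The median was 0.04 with 1 added to the linear signal, and 0.008 over the 5 genes whose mean log2 value was 0 or more. *Syk*, which binds activating motifs, had a log2 fold change of 0.51 (SE 0.37). The widely made *Src*, *Fyn* and *Csk*, the kinase that adds the phosphate that CD45 removes, had log2 fold changes of −0.02, 0.01 and −0.10. *Yes1*, a widely made Src family kinase, lay above by 0.14 (SE 0.18).

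The family of classical protein tyrosine phosphatases had a median close to that of all genes. Of 38 genes, 33 had values throughout, 9 lay above and 5 below (7.59% and 8.1% of all genes), and the median log2 fold change was 0.03. *Ptpro* (1.43), *Ptprc* (0.93), *Ptprz1* (0.91) and *Ptpn5* (0.84) had larger log2 fold changes than *Ptpn6* (0.72), and the mean log2 value of each of these 5 genes was below 0. Among those whose mean log2 value was 0 or more, *Ptpn2*, a phosphatase of JAK and STAT proteins, was 1.50 and 1.82 against 1.35 and 1.14 (0.42, SE 0.23). *Ptprk* was higher by 0.34 (SE 0.23), and *Ptpn3* (−0.40, SE 0.31) and *Ptpn14* (−0.38, SE 0.20) lay below.

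The other signaling lists had medians near 0, and at most 2 genes of each lay above or below (7.59% and 8.1% of all genes). Median log2 fold changes were 0.02 for inositol phosphatases and lipid kinases (19 genes, 1 above, 0 below), 0.04 for adaptors and docking proteins (18 genes, 1 above, 1 below), 0.07 for cytokine receptors and JAK-STAT genes (17 genes, 0 above, 2 below) and −0.07 for receptor tyrosine kinases of stroma (10 genes, 0 above, 1 below). *Dok1*, a docking protein that damps Ras signaling, lay below with a log2 fold change of −0.36 (SE 0.20), and so did *Il6ra*, *Jak1* and *Ddr2* at −0.18, −0.15 and −0.17. The leukocyte adaptors *Lcp2* (SLP-76) and *Vav1*, a guanine nucleotide exchange factor, were higher within both numbers (log2 fold changes 0.95 and 0.87) with overlapping populations, whereas *Gab3*, a docking protein of blood cells, was lower within both (−0.50, SE 0.71) and *Pstpip1* was mixed (−0.0023 and 0.64 within numbers). In limma without a block, 0 genes of any list had an adjusted p under 0.05.

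**Figure D4:**
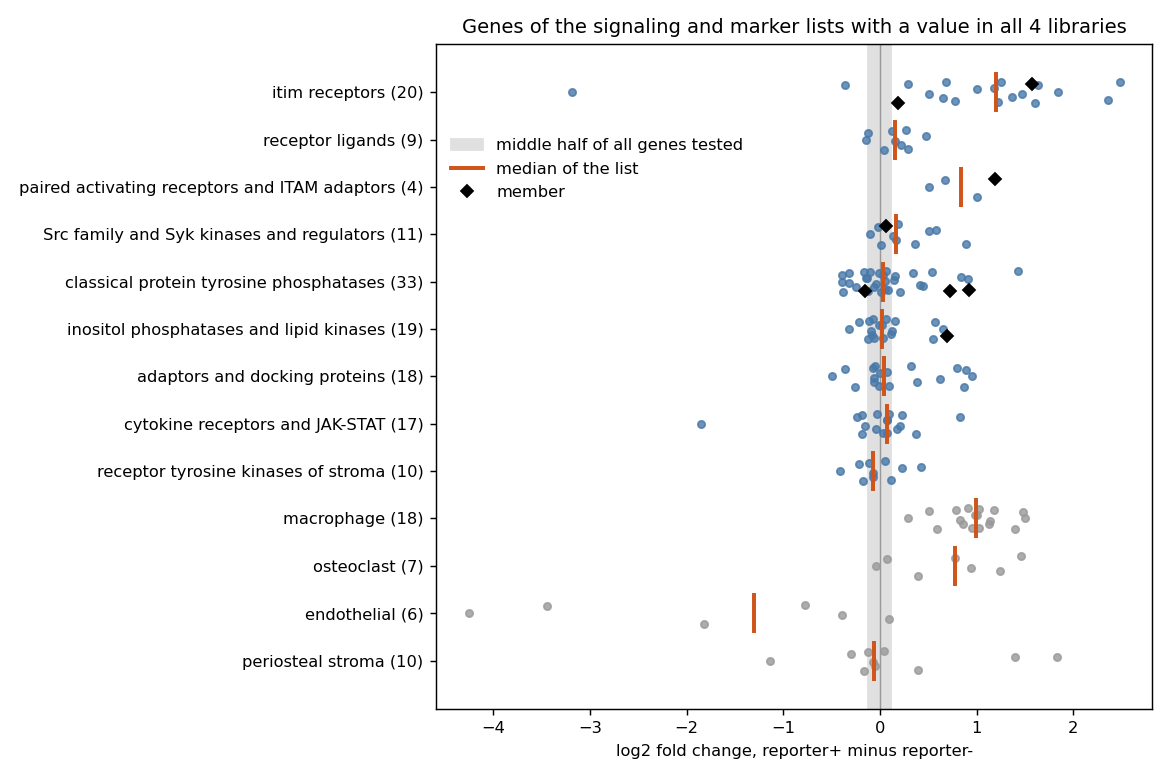
Log2 fold change, PDGFRα reporter+ minus PDGFRα reporter- (horizontal axis), of every gene with a value in all 4 libraries in 9 signaling lists (blue) and 4 marker lists (gray), with the number of genes in brackets, members as black diamonds, list medians as orange bars and the quartiles of all genes tested (−0.13 to 0.11) as a gray band. The median is 1.20 for the ITIM receptor list, 0.99 for macrophage markers and −1.30 for endothelial markers.

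The genes whose profile over the 4 libraries was most like that of *Ptpn6* were found by the Euclidean distance between profiles centered on their own mean, among the 10220 genes other than members with values throughout whose mean log2 value was 0 or more. They were *Fam65c* (distance 0.259 log2 units), *Sfrp4*, a secreted Wnt antagonist (0.262), *Rspo3*, a Wnt agonist (0.277), *Ednrb*, an endothelin receptor (0.281), and *Sod2*, the mitochondrial superoxide dismutase (0.286). Of these, *Ednrb* was 2.74 and 3.31 in PDGFRα reporter+ libraries 2 and 3 and 1.83 and 2.51 in PDGFRα reporter- libraries 2 and 3. The macrophage marker *Cd68* followed at 0.299, with 5 candidates nearer than it. It was the nearest of the 18 macrophage markers, for which the share of candidates that were nearer ran from 0.0489% to 94.5% (*Aif1*), with a median of 36.2%. Among the members, *Inpp5d* (0.604) and *Ptprc* (0.648) were nearest to *Ptpn6*, then *Lyn* (0.691), *Pira2* (0.778), *Ptpn11* (0.879), *Sirpa* (0.974) and *Pirb* (1.45). With 4 points a profile, such distances describe these libraries only.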

How the data were processed

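Stranded paired-end Illumina sequencing of total RNA gave 2 PDGFRα reporter+ and 2 PDGFRα reporter- libraries. Quantile normalized signals were deposited by the authors as log2 values, 1 for each symbol in each library, and cells without signal were blank. Submitters' processing notes name bcl2fastq 2.17.1.14, Partek 7.0 and GRCm38.p6, and the aligner, the counting, the annotation and the linear unit are not given in the sources used here. Depth is therefore unknown. The headings give the population and the number 2 or 3, whereas the labels number replicates 1 and 2, so libraries were assigned to a population only. Nothing states that the libraries of a population came from separate cultures, and p-values then measure the spread between these libraries, which may be technical.

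Fold changes were PDGFRα reporter+ mean minus PDGFRα reporter- mean on the log2 scale, for genes with 4 values. The test was limma 3.58.1 under R 4.3.3 (lmFit, eBayes with a variance trend, two-sided, no block), and p was adjusted by Benjamini-Hochberg over the 14415 genes, at a threshold of 0.05. The model was tested on simulated data. Ratios between genes were compared with an exact two-sided permutation test over the libraries. Alternatives were a block by library number, pseudocounts of 1 and 0.1, a minimum mean log2 value of 0, blanks set to the lowest value, columns centered on their median, no variance trend, each library left out in turn, and a block without a variance trend, which was added after seeing the data. Summaries were made in Python 3.11.15 with pandas 2.3.3. Positions, overlaps and transcript windows came from GENCODE M21 (GRCm38), and promoters from RefSeq (GRCm38.p6).

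The members and the gene lists were chosen with earlier results of these data known. Named genes were the members, list genes, with values chiefly for the genes of each list with the largest positive and negative log2 fold change among those whose mean log2 value was 0 or more and whose populations did not overlap, 6 macrophage markers, *Pdgfra* and the 5 genes nearest to *Ptpn6*. *Clec4a2*, *Clec12a*, *Inppl1*, *Cd47*, *Fcer1g*, *Syk* and the other list genes given with values outside that rule were chosen after their values were seen. List genes that are not named entered the counts and medians. Marker lists covered macrophages, neutrophils, B cells, T cells, mast cells, osteoclasts, erythroid cells, endothelial cells and periosteal stroma.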

Additional observations from a re-analysis of the deposited data

How the results depend on the processing

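No member passed the threshold in any of the 11 alternative settings or the 1 added later. Among the 92 recomputed log2 fold changes of members, 87 kept their sign and 5 reversed, all with 1 library left out: *Lyn* without PDGFRα reporter- library 2 (−0.17) or PDGFRα reporter+ library 3 (−0.26), *Sirpa* without PDGFRα reporter- library 3 (−0.03) or PDGFRα reporter+ library 2 (−0.050), and *Ptpn11* without PDGFRα reporter+ library 2 (0.037). Leaving out single libraries, the log2 fold change ranged from 0.52 to 0.92 for *Ptpn6*, 0.64 to 2.50 for *Pirb*, 0.66 to 1.73 for *Pira2*, 0.39 to 1.46 for *Ptprc*, 0.09 to 1.29 for *Inpp5d*, −0.34 to 0.037 for *Ptpn11*, −0.050 to 0.41 for *Sirpa* and −0.26 to 0.38 for *Lyn*. *Ptpn6* minus *Ptpn11* stayed between 0.82 and 0.93 in those fits. The number of members above ranged from 4 to 6 and the number below from 0 to 2, since a population of 1 library separates more easily, and 1 member was above with the minimum mean log2 value of 0, under which *Ptpn6*, *Inpp5d*, *Ptprc* and *Pira2* were not tested. The median of the ITIM receptor list was 0.39 without PDGFRα reporter- library 2, 1.76 without PDGFRα reporter- library 3, 1.73 without PDGFRα reporter+ library 2 and 0.14 with a pseudocount of 1. With pseudocounts of 1 and 0.1 the paired activating receptor list had the higher median (0.33 against 0.14 and 0.69 against 0.54). Of the 108 recomputed list medians, 8 changed sign. That of inositol phosphatases and lipid kinases, for example, went from 0.016 to −0.097 without PDGFRα reporter- library 3.

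Libraries of the 2 populations share only a heading number. Across genes, the deviations of same-numbered libraries from their population means correlated at 0.681, and whether the number marks a shared preparation is not given in the sources used here. With the number as a replicate block, limma called 29 genes at an adjusted p under 0.05 (913 at an unadjusted p under 0.05), against 0 without it (131), and among listed genes these were *Tyrobp*, *C1qb* and *Lum*. Of the members, 4 passed an unadjusted p under 0.05 with the block and 0 without it. The block gave them adjusted p of 0.553 for *Ptpn6*, 0.0642 for *Pirb* and 0.529 to 1.00 for the others. The block without a variance trend called 0 genes (941 at an unadjusted p under 0.05), and *Pirb* then had an adjusted p of 0.463. The cause was not tested.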
